A study of Homo sapiens with 30 samples.

Results

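Herbal shisha was added to burning charcoal, and its smoke was compared with that of charcoal burnt with no shisha, in BEAS-2B cells taken 24 h after exposure. The comparison used 6 of the 30 samples of the series, chosen by their labels: 3 wells exposed to charcoal with herbal shisha (labelled non-tobacco; called herbal wells here) and 3 wells exposed to charcoal alone (charcoal wells). BEAS-2B is an established, immortalised line of human bronchial epithelial cells. In the full series, wells spent 30 min of exposure on a rocker under 1 of 5 conditions (control, charcoal alone, herbal shisha on charcoal, tobacco shisha on charcoal, or tobacco shisha on an electronic heater), and RNA was collected 2 h or 24 h later from 3 wells per condition and time. Both groups compared here were therefore exposed to charcoal smoke, and differed by label in whether herbal shisha was added. The dose of each condition was the highest with no release of lactate dehydrogenase, an enzyme that leaks from damaged cells, at 24 h, so doses were matched on this measure and not on smoke mass, and the amount of charcoal smoke may also have differed. The labels do not say what the control wells received or whether the wells were separate cultures. P-values therefore measure the spread between wells of the same group, shared over all 30 libraries, which may be technical.

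Cells that meet reactive smoke chemicals use several well-studied transcriptional programs. NRF2 is freed from its inhibitor KEAP1 by electrophiles and turns on genes for quinone reduction and glutathione synthesis, while ATF4 is translated when amino acids run short or proteins misfold and turns on genes for amino acid synthesis and tRNA charging. HIF-1 accumulates when oxygen or prolyl hydroxylase activity falls and raises glucose uptake and glycolysis, SREBP-2 raises cholesterol synthesis and uptake when membrane sterol is low, and retinoic acid receptors set the retinoid-controlled genes that help to keep airway epithelium differentiated.

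Values were FPKM, fragments scaled by transcript length and by the library's mapped fragments, which allow levels to be compared between genes per unit of length. No read counts were given, so the depth is unknown and no counting interval could be set. FPKM summed over genes to between 199985 and 220259 per library in the series. The 3 charcoal wells summed to 200565, 204050 and 202726, and the 3 herbal wells to 204632, 208720 and 210670, so the sums did not overlap between the groups. With libraries scaled by their median ratio the comparison called 2678 genes, against 2687 as deposited. Between 7738 and 7944 genes reached 1 FPKM in each of the 6 libraries. Libraries of the same group correlated at 0.987 to 0.991 across genes on the log2(FPKM + 1) scale, and libraries of different groups at 0.977 to 0.985.

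With herbal shisha, 1381 genes rose (16.2% of the 8531 tested) and 1306 fell (15.3%), 2687 in all (31.5%). A few genes outside the rule for naming genes appear where a count is small or a list's exceptions are given, and these were chosen after their values were seen. A gene was called, here and below, at a Benjamini-Hochberg adjusted p below 0.05 in limma, on log2(FPKM + 1) values over the whole table, and log2 differences are on that scale, which understates the change of low genes. Most changes were small. The median log2 difference was 0.25 among genes that rose and -0.35 among genes that fell, 55 rose and 257 fell by at least 1.5-fold, and 9 rose and 50 fell by at least 2-fold. All 3 herbal wells lay above all 3 charcoal wells in 2131 of the tested genes and below them in 1699. When the test asked for more than a 1.5-fold change in place of any change, 19 genes were called, 2 higher and 17 lower.

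The herbal wells were not equally far from charcoal. Well 1 was the nearest of the 3 to the charcoal mean in 788 of the 1381 genes that rose (57.1%) and in 950 of the 1306 that fell (72.7%). The median distance of the fallen genes from the charcoal mean was -0.24 in well 1, -0.37 in well 2 and -0.43 in well 3. Without herbal well 1 the count of calls was 2859, and without herbal well 3 it was 1770. Why the wells differ was not tested.

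The promoters of genes with large changes are shown to make visible the short motifs through which such programs are read. The 250 bases before the transcription start were taken from RefSeq (GRCh38.p14; the first entry listed per gene), in which 6267 of the 8531 tested genes had an entry. Both strands were searched for the antioxidant response core TGACNNNGC, the dioxin response core GCGTG, the AP-1 site TGANTCA, the hypoxia response core ACGTG, the E2F site TTTGGCGC and the ATF4 composite core TGATGNAA; the last was added after the values were seen, and overlapping matches were counted separately. Capitals mark a match to any of them. Genes were taken in order of the size of their change. Genes without an entry, and genes on a chromosome that was left out by rule, were passed over whatever their window held. A gene whose window held no match other than the ATF4 core was also passed over. Each window shown therefore holds a match by choice. Shown are ASNS (chr7:97872409-97872658, minus strand), CBX5 (chr12:54280123-54280372, minus strand) and NT5E (chr6:85449833-85450082, plus strand), which are among the largest rises, and RARRES1 (chr3:158732458-158732707, minus strand), CD14 (chr5:140633176-140633425, minus strand) and PDZK1IP1 (chr1:47190037-47190286, minus strand), which are among the largest falls, each written 5′ to 3′ on the strand of its gene.
ASNS: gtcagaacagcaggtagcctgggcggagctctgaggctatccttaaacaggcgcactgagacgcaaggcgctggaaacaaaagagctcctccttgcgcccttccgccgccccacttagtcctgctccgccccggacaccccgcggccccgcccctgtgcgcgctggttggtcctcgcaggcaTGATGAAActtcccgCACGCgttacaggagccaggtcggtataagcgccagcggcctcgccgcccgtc
CBX5: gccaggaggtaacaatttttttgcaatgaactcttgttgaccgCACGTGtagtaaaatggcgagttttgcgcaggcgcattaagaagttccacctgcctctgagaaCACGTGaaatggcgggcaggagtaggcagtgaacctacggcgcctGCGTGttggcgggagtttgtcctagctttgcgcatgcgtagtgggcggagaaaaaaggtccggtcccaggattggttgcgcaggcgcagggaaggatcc
NT5E: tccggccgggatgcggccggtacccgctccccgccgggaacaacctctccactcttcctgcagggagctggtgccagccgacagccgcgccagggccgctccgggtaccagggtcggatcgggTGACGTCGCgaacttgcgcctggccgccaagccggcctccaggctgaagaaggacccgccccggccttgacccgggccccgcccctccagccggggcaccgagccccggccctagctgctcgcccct
RARRES1: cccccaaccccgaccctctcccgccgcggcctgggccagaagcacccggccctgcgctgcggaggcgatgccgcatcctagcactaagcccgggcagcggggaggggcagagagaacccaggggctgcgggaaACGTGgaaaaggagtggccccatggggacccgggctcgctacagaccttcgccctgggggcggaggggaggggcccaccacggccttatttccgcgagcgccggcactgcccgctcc
CD14: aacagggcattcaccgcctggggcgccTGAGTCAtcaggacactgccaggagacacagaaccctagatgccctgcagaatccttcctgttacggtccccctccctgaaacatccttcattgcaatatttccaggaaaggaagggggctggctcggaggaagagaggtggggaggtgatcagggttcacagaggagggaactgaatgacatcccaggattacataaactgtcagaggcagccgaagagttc
PDZK1IP1: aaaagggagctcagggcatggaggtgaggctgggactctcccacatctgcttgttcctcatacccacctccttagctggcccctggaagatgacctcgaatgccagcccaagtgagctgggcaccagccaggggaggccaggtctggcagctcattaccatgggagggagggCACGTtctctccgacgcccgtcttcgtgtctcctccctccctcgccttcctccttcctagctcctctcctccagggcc

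The ASNS window held an ATF4 composite core at bases 183 to 190, counted from 1 at the window's 5′ end, and the CD14 window an AP-1 site at bases 28 to 34. NT5E held an antioxidant response core at bases 124 to 132. The hypoxia core was the match in RARRES1 and PDZK1IP1, at bases 134 to 138 and 173 to 177. CBX5, a gene that rose, held 4 hypoxia matches, overlapping in pairs at bases 44 to 49 and 107 to 112, and a dioxin core at bases 152 to 156. ASNS also held a dioxin core, at bases 198 to 202. These are matches of letters and not bound sites. The antioxidant core stood in 13.9% of the promoters of genes that rose, 11.2% of those that fell, 12.2% of those tested and 11% of all 27305 RefSeq promoters. The dioxin core stood in 47.8%, 41.4%, 46.9% and 31.9% of the same 4 sets, and the hypoxia core in 25.8%, 21.2%, 23.8% and 18.7%. For AP-1 the shares were 4.62%, 2.77%, 3.80% and 6.60%, for E2F 0.578%, 1.44%, 0.973% and 0.553%, and for the ATF4 composite core 1.83%, 1.03%, 1.37% and 3.19%. In each motif the shares differed by at most a few percentage points between genes that rose and all genes tested. The widest gap from all genes tested was in genes that fell, for the dioxin core, at 41.4% against 46.9%.

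Among called genes whose wells did not overlap and whose higher group reached 2 FPKM, the largest rise was in asparagine synthetase, ASNS, a classic ATF4 target. ASNS measured 7.85, 21.3 and 25.8 FPKM in the 3 herbal wells and 3.67, 3.69 and 3.87 in the charcoal wells. The herbal wells did not overlap the charcoal wells but spread over a wide range, with well 1 the lowest. The log2 difference was 1.88 ± 0.24 (SE, n = 3 wells per group), with an adjusted p of 4.98e-06. Here and below the SE of a log2 difference uses the spread shared over all 30 libraries. PSAT1, which makes phosphoserine on the route to serine, measured 51.1, 84.2 and 99.6 FPKM in herbal wells against 29.6, 27.7 and 28.4 in charcoal wells, a log2 difference of 1.37 ± 0.14 (adjusted p = 2.44e-07). Control wells measured 17.3, 16.4 and 19.5 FPKM for ASNS and 63.3, 63.1 and 76.5 for PSAT1. In both genes the charcoal wells were thus the low group, and the herbal and control wells overlapped.

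The neuropeptide galanin, GAL, measured 6.90, 9.18 and 13.0 FPKM in herbal wells against 3.48, 2.71 and 2.81 in charcoal wells, a log2 difference of 1.39 ± 0.21 (adjusted p = 2.77e-05). NT5E, the ectoenzyme that makes extracellular adenosine from AMP, measured 17.2, 16.7 and 23.1 FPKM against 8.93, 8.39 and 9.62 (log2 difference 0.99 ± 0.15, adjusted p = 3.49e-05). ODC1, the first enzyme of polyamine synthesis, measured 36.7, 48.7 and 56.1 FPKM against 24.5, 24.2 and 25.2 (log2 difference 0.89 ± 0.11, adjusted p = 2.12e-06). In these 3 genes every herbal well lay above every charcoal well. HMGA1, a chromatin protein of proliferating cells, rose by 0.91 ± 0.13, ENDOD1 by 0.87 ± 0.09, ARHGDIB by 0.93 ± 0.14 and PTAR1 by 0.93 ± 0.19. KRT81, a hair keratin with close paralogs whose reads may be shared, rose by 0.97 ± 0.14. SERPINB7, a protease inhibitor, and ETV4, a transcription factor of the ETS family, were low genes whose rises of 1.12 and 0.91 became 1.72 and 1.58 with a pseudocount of 0.1.

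CBX5, which encodes a heterochromatin protein, showed how much a single well can carry. It measured 25.9, 23.4 and 21.7 FPKM in herbal wells and 18.1, 4.30 and 3.49 in charcoal wells, so charcoal well 1 stood apart from its group. The log2 difference was 1.68 ± 0.50 (adjusted p = 0.0136), and the call was lost without charcoal well 2 (adjusted p = 0.0698) or well 3 (0.0830). AGK and SNORA71B rose by 0.81 and 0.89 but lost the call without charcoal well 1 (adjusted p = 0.167 and 0.0782). The AGK call was also lost without charcoal well 2 (0.0851) and without herbal well 1 (0.0557), 2 (0.0560) or 3 (0.0842), and its rise was 1.33 where all rows of its name were summed. A row named for a small nucleolar RNA, as SNORA71B is, was not read as a measure of that RNA, since the kit was not a small-RNA kit.

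**Figure D1:**
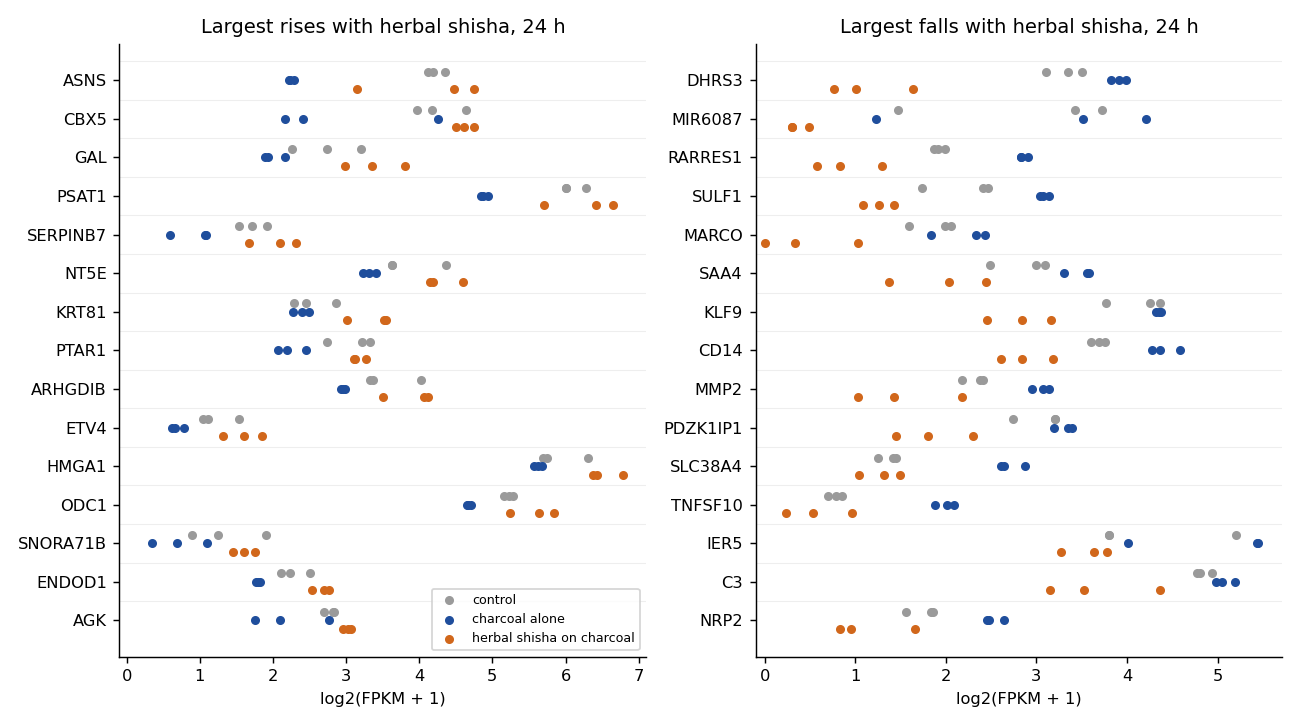
Levels of the 15 genes with the largest rises (left) and the 15 with the largest falls (right), as log2(FPKM + 1) on the horizontal axis; each point is 1 well at 24 h, grey for control, blue for charcoal alone and orange for herbal shisha on charcoal. Herbal wells lie to the right of every charcoal well in the left panel and to the left of every charcoal well in the right panel, because non-overlap was part of how the genes were chosen; ASNS spreads most among the herbal wells on the left, and charcoal well 1 of CBX5 lies apart.

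Part of the wider ATF4 program of amino acid supply was higher than with charcoal alone. Of the 20 tested ATF4 targets 11 rose and 2 fell, against 16.2% and 15.3% of all tested genes, with a median log2 difference of 0.25 against 0.01 over all genes. Set against control wells, charcoal alone had 1 target higher and 11 lower, with a median of -0.40. Herbal shisha had 0 higher and 4 lower than control, with a median of -0.14. Both of these comparisons share wells with the main one. Over all tested genes, charcoal alone had 6.05% higher and 3.82% lower than control, and herbal shisha 16.5% and 10.4%. SHMT2, the mitochondrial serine hydroxymethyltransferase, measured 105, 136 and 141 FPKM in herbal wells against 82.5, 85.5 and 86.3 in charcoal wells (log2 difference 0.57 ± 0.07, adjusted p = 5.48e-06). ALDH1L2, a mitochondrial folate enzyme at low level, rose by 0.57 ± 0.10, or by 1.39 with a pseudocount of 0.1. The 2 that fell were DDIT4, also a hypoxia gene, at -0.90, and the amino acid transporter SLC7A5 at -0.31; the SLC7A5 call was lost without charcoal well 1, herbal well 1 or herbal well 3. The stress factor ATF3 and the sestrin SESN2 did not pass, with log2 differences of -0.11 and 0.08.

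The cytosolic aminoacyl-tRNA synthetases, which load amino acids onto tRNAs, moved together. Of 17 tested, 15 rose and 0 fell, with a median of 0.28. YARS, the tyrosyl enzyme, measured 28.0, 37.0 and 41.5 FPKM in herbal wells against 21.4, 21.2 and 21.3 in charcoal wells (log2 difference 0.69 ± 0.09, adjusted p = 4.10e-06), and MARS, the methionyl enzyme, 68.9, 77.7 and 88.3 against 52.6, 55.0 and 56.3 (0.50 ± 0.06, adjusted p = 1.34e-06). SARS, the seryl enzyme, rose by 0.35 ± 0.05. The 2 not called were DARS (-0.10) and QARS (-0.05). In each of these 3 named genes well 1 was the lowest herbal well, and across the list the median distance from the charcoal mean was 0.18 in well 1, 0.27 in well 2 and 0.40 in well 3. Set against control wells, charcoal alone had 1 synthetase higher and 11 lower, and herbal shisha had 6 higher and 2 lower. The shares of all tested genes were 6.05% higher and 3.82% lower with charcoal alone, and 16.5% and 10.4% with herbal shisha. These comparisons share wells with the one above and are given side by side for that reason.

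Genes of the proteasome, which degrades ubiquitin-tagged proteins, rose together. Of 36 tested proteasome subunits and assembly factors 29 rose and 2 fell, with a median of 0.27. PSMD13, a lid subunit of the 19S cap, measured 88.3, 88.9 and 94.9 FPKM in herbal wells and 64.3, 65.3 and 68.9 in charcoal wells (log2 difference 0.45 ± 0.06, adjusted p = 6.06e-06). The ATPase subunits PSMC4 and PSMC3 rose by 0.32 ± 0.04 and 0.22 ± 0.03. Without herbal well 2, 1 was called lower. The 2 that fell were PSMB10 (-0.36) and PSME1 (-0.25), which belong to the interferon-inducible immunoproteasome and its activator. Of 22 tested heat shock genes 6 rose and 2 fell, with a median of 0.24. HSPA8, the constitutive HSC70 chaperone, measured 717, 821 and 865 FPKM against 527, 536 and 599 (0.53 ± 0.15, adjusted p = 0.00854). HSPD1, the mitochondrial chaperonin, rose by 0.42 ± 0.10 and the co-chaperone STIP1 by 0.30 ± 0.07. The stress-inducible HSPA1A, nearly identical to HSPA1B, measured 17.3, 16.5 and 18.3 FPKM against 14.1, 14.6 and 14.6 and did not pass (0.25 ± 0.27, adjusted p = 0.523). Its herbal wells all lay above its charcoal wells, and its wide SE reflects the spread shared over all 30 libraries. Without charcoal well 1, 3 heat shock genes were called higher, and in a fit of the 6 compared libraries alone 13 were. The 2 called lower were 0 without charcoal well 2 or herbal well 3 and 1 without charcoal well 1 or 3 or herbal well 2.

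The mitochondrial lists had a smaller share of genes called higher than the proteasome list, and smaller median differences. Of 56 tested mitochondrial ribosomal proteins 26 rose and 0 fell, with a median of 0.17; without herbal well 3, 17 were called. MRPL24 measured 58.7, 65.2 and 74.6 FPKM in herbal wells against 44.2, 45.6 and 41.5 in charcoal wells (log2 difference 0.58 ± 0.07, adjusted p = 2.11e-06). MRPL21 rose by 0.42 ± 0.05 and MRPL19 by 0.30 ± 0.04. Of the respiratory chain, 11 of 30 tested complex I genes rose and 2 fell (7 rose without herbal well 3, and 0 or 1 fell without any well other than that one), 5 of 17 genes of complexes II, III and IV rose and 0 fell (1 fell without herbal well 2), and 4 of 10 ATP synthase genes rose and 0 fell (2 rose without charcoal well 1). NDUFS3 and NDUFB9 of complex I rose by 0.28 and 0.33, SDHB and SDHD of complex II by 0.30 and 0.25, UQCRC2 of complex III by 0.21 and the ATP synthase beta subunit ATP5B by 0.22. Of 32 tested cytosolic ribosomal proteins 9 rose and 1 fell; RPS14 rose by 0.26 and RPL38 by 0.18.

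Antioxidant genes split by family. Of 21 tested NRF2 targets 9 rose and 0 fell, with a median of 0.12. NQO1, a quinone reductase, measured 107, 108 and 118 FPKM in herbal wells, 59.3, 65.1 and 67.2 in charcoal wells and 40.3, 40.1 and 36.8 in control wells. The 3 groups did not overlap and stood in that order, and the herbal difference from charcoal was 0.79 ± 0.07 (adjusted p = 1.26e-07). GCLM, the modifier subunit of the enzyme that starts glutathione synthesis, measured 19.4, 19.3 and 20.3 FPKM against 12.3, 11.8 and 14.0 (0.60 ± 0.09, adjusted p = 3.49e-05), and sulfiredoxin, SRXN1, 47.7, 51.5 and 55.5 against 38.2, 40.2 and 38.6 (0.39 ± 0.06, adjusted p = 1.71e-05). The catalytic partner GCLC and thioredoxin reductase TXNRD1, chosen for naming after their values were seen, did not pass (0.01 and -0.03). Without charcoal well 1, 1 NRF2 target was called lower, and without herbal well 1, 2 were.

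Of the aldo-keto reductases, which reduce aldehydes and ketones and include known NRF2-responsive genes, AKR1B1 and AKR1C3 went the other way. AKR1B1, aldose reductase, measured 347, 240 and 266 FPKM in herbal wells and 519, 619 and 726 in charcoal wells, against 257, 228 and 215 in control wells. The difference was -1.13 ± 0.14 (adjusted p = 2.71e-06), and herbal wells 2 and 3 lay near the control range. AKR1C3, a steroid and prostaglandin reductase with near-identical relatives that can share reads, measured 4.66, 2.90 and 2.54 FPKM against 6.73, 8.42 and 8.01 (-1.02 ± 0.14, adjusted p = 7.58e-06), with control wells at 1.87, 1.90 and 2.00. These were the 2 called among 4 tested; AKR1C1 and AKR7A3 did not pass, at -0.12 and -0.07. Of 15 tested glutathione enzymes 4 rose and 2 fell: the microsomal transferase MGST1 measured 28.8, 27.6 and 27.8 FPKM against 18, 20.3 and 21.2 (0.48 ± 0.06), the glyoxalase GLO1 rose by 0.24, and the lipid peroxidase GPX4 fell by 0.24. The glutathione counts were 2 higher without charcoal well 1 or herbal well 3, and 1 lower without each of 5 of the 6 wells.

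**Figure D2:**
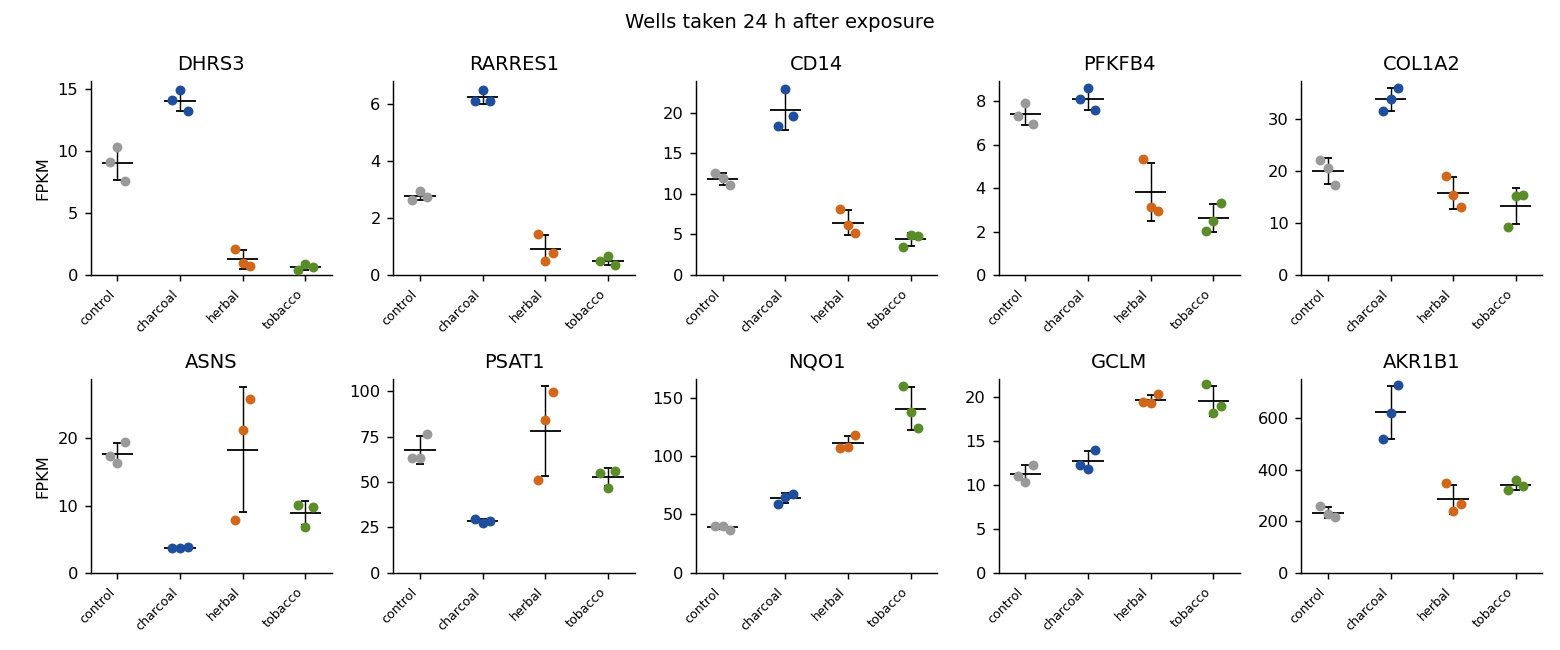
FPKM of 10 genes in the wells taken at 24 h, for control, charcoal alone, herbal shisha on charcoal and tobacco shisha on charcoal; points are wells, the horizontal bar is the mean of 3 wells and the error bar their SD. NQO1 steps up from control to charcoal to herbal wells, AKR1B1 peaks in the charcoal wells, ASNS and PSAT1 are lowest in the charcoal wells, and DHRS3, RARRES1 and CD14 are highest there.

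Genes of retinoid metabolism and response held 2 of the 3 largest falls by the same criteria, DHRS3 and RARRES1. DHRS3, the retinal reductase that is induced by retinoic acid, measured 2.11, 1.01 and 0.697 FPKM in herbal wells and 14.1, 14.9 and 13.2 in charcoal wells. The log2 difference was -2.78 ± 0.15 (adjusted p = 1.65e-11), and control wells lay between, at 9.15, 10.3 and 7.58. RARRES1, named for its response to retinoic acid receptors, measured 1.46, 0.492 and 0.773 FPKM against 6.10, 6.51 and 6.13 (-1.96 ± 0.16, adjusted p = 2.98e-08), with control wells at 2.64, 2.96 and 2.76. CYP26B1, which breaks down retinoic acid, measured 0.556, 0.457 and 0.456 FPKM against 1.49, 1.84 and 1.71, a difference of -0.85 ± 0.11 (adjusted p = 6.27e-06) that was -1.59 with a pseudocount of 0.1. In these genes the herbal wells were the lowest of the 3 groups and the charcoal wells the highest. Of 9 tested genes of the list 7 fell and 0 rose, with a median of -0.76; the binding protein CRABP2 and the receptors RARG and RARA also fell (-0.76, -0.43 and -0.34), and TGM2 and RDH10 did not pass. With genes under a mean of 5 FPKM left out, 4 were called lower and the median was -0.43.

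The other largest falls were in genes of varied function. SULF1, which trims sulfate from heparan sulfate chains, measured 1.69, 1.39 and 1.12 FPKM in herbal wells against 7.21, 7.38 and 7.83 in charcoal wells (log2 difference -1.83 ± 0.14, adjusted p = 2.09e-08). KLF9, a transcription factor that responds to glucocorticoid, measured 7.94, 6.14 and 4.46 FPKM against 19.7, 19.5 and 19.0 (-1.54 ± 0.23, adjusted p = 2.74e-05). NRP2, a co-receptor for semaphorins and VEGF, measured 2.17, 0.929 and 0.783 FPKM against 4.47, 5.23 and 4.57 (-1.37 ± 0.15, adjusted p = 8.35e-07). In these 3 genes every herbal well lay below every charcoal well, and well 3 was the lowest. PDZK1IP1, a small membrane protein, fell by 1.46 ± 0.21, and SLC38A4, an amino acid transporter, by 1.43 ± 0.12, to 1.81, 1.5 and 1.06 FPKM from 5.10, 5.25 and 6.34. Charcoal wells of MIR6087 spread widely. The row named MIR6087, not read as a measure of the mature miRNA, stood at 17.5, 10.4 and 1.34 FPKM in charcoal wells and 0.233, 0.232 and 0.405 in herbal wells; its call was lost without charcoal well 1 (adjusted p = 0.0704). The IER5 call was lost when libraries of 24 h alone were fitted (adjusted p = 0.0529).

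Hypoxia-responsive genes fell. Of 19 tested 14 fell and 0 rose, with a median of -0.39. SLC2A1, the glucose transporter GLUT1, measured 59.0, 52.5 and 47.2 FPKM in herbal wells against 82.8, 84.7 and 80.9 in charcoal wells (log2 difference -0.64 ± 0.07, adjusted p = 1.08e-06). BNIP3, a mitophagy receptor, measured 77.9, 60.9 and 55.1 FPKM against 108, 96.4 and 93.0, with control wells at 164, 166 and 158 (-0.62 ± 0.09, adjusted p = 1.54e-05). PFKFB4, which makes an activator of glycolysis, fell by 0.95 ± 0.13 on the log2 scale, from 8.09 ± 0.494 FPKM (SD, n = 3) in charcoal wells to 3.81 ± 1.34 in herbal wells. The median distance of the list from the charcoal mean was -0.20 in herbal well 1, -0.48 in well 2 and -0.51 in well 3. Of 13 tested glycolysis genes 6 fell and 1 rose, with a median of -0.17. ALDOC, an aldolase, measured 25.5, 14.0 and 13.8 FPKM against 32.5, 33.4 and 31.4 (-0.89 ± 0.13, adjusted p = 3.27e-05), and the lactate exporter SLC16A3 fell by 0.38. The gene that rose was LDHB (0.22). In a fit of the 6 compared libraries alone 3 glycolysis genes were called lower.

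Lipid synthesis genes fell against charcoal alone. The listed cholesterol genes summed to 835 to 849 FPKM in herbal, 946 to 972 in charcoal and 824 to 925 in control wells. Those of fatty acid synthesis summed to 674 to 769, 963 to 983 and 760 to 866 FPKM. The charcoal wells were thus the high group, and the median log2 differences of herbal minus control were -0.16 and -0.14. Of 16 tested genes of cholesterol synthesis and uptake 11 fell and 0 rose, with a median of -0.31. LSS, lanosterol synthase, measured 28.6, 28.0 and 27.4 FPKM in herbal wells against 36.3, 38.5 and 36.8 in charcoal wells (log2 difference -0.40 ± 0.08, adjusted p = 0.000412), and the sterol oxidase MSMO1 31.7, 32.9 and 27.0 against 42.5, 39.6 and 45.5 (-0.47 ± 0.09, adjusted p = 0.000563). Herbal wells 1, 2 and 3 lay at almost the same median distance from charcoal here, at -0.32, -0.33 and -0.32. Without herbal well 1, 1 cholesterol gene was called higher. Of 12 tested genes of fatty acid synthesis and desaturation 9 fell and 2 rose, with a median of -0.27. SCD, stearoyl-CoA desaturase, measured 127, 103 and 91.7 FPKM against 194, 188 and 192 (-0.85 ± 0.09, adjusted p = 4.57e-07), FADS2, a polyunsaturated desaturase, fell by 0.71 ± 0.10 and FASN, fatty acid synthase, by 0.65 ± 0.08. The 2 that rose, ELOVL1 and ACSL1 (0.18 and 0.19), were 0 without charcoal well 1, 1 without charcoal well 2 and 1 without herbal well 3. Of 9 tested genes of fatty acid oxidation 2 rose and 0 fell, falling to 1 without any of the 3 charcoal wells or without herbal well 3; ACADVL did not pass at -0.14.

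Matrix genes fell for the most part. Of 21 tested genes of collagens, laminins and other matrix 13 fell and 3 rose, with a median of -0.37. COL5A2 measured 7.76, 7.90 and 6.07 FPKM in herbal wells against 17.6, 16.3 and 16.5 in charcoal wells (log2 difference -1.12 ± 0.15, adjusted p = 6.06e-06), and tenascin, TNC, 62.0, 53.3 and 50.8 against 92.5, 97.5 and 112 (-0.85 ± 0.10, adjusted p = 3.19e-06). COL1A2 fell by 1.06 ± 0.15 and COL4A1 by 0.51 ± 0.10. Among the 3 that rose were TGFBI (0.41) and VIM (0.50), which encodes vimentin, a cytoskeletal protein that was on this list. MMP2, gelatinase A, measured 3.53, 1.68 and 1.04 FPKM against 6.74, 7.78 and 7.39 (-1.51 ± 0.18, adjusted p = 1.70e-06), and PLAU, urokinase, 46.4, 45.8 and 42.3 against 78.3, 86.5 and 81.9 (-0.86 ± 0.10, adjusted p = 1.05e-06). TIMP1, a metalloproteinase inhibitor, went up, at 114, 108 and 111 FPKM against 81.7, 89.2 and 79.2 (0.41 ± 0.05, adjusted p = 2.25e-06). Of the 15 tested metalloproteinases, inhibitors and plasminogen activators 6 fell and 3 rose.

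Fibroblast markers moved with the matrix genes. The 11 fibroblast markers summed to 359 to 368 FPKM in charcoal wells and 258 to 289 in herbal wells; 4 of the 11 were tested and 4 fell (COL1A1, COL1A2, PDGFRB and THY1), and in a bulk sample fewer cells of a type and less RNA per cell cannot be told apart. COL1A1 and COL1A2 are in both lists. In control wells the 11 markers summed to 305 to 325 FPKM. Set against control, charcoal alone had 3 of the 4 tested markers higher and 0 lower, and herbal shisha had 0 higher and 1 lower. Over all tested genes the shares were 6.05% and 3.82% with charcoal alone, and 16.5% and 10.4% with herbal shisha. The labels describe a single epithelial line, name no fibroblasts, and do not say whether the line itself expresses these markers; the part of either in the fall of the matrix genes was not tested. PDGFRB measured 15.9, 13.8 and 11.5 FPKM in herbal wells against 23.6, 27.0 and 26.2 in charcoal wells (log2 difference -0.86 ± 0.13), and THY1 138, 133 and 130 against 157, 162 and 158 (-0.24 ± 0.04).

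Epithelial genes held the label of the line only in part. The keratins of simple epithelium were abundant, with KRT8 at 503, 481 and 466 FPKM in herbal wells and 656, 728 and 696 in charcoal wells, a fall of 0.52 ± 0.06 on the log2 scale (adjusted p = 8.71e-07). Of the 9 listed basal airway markers 6 were found in the files, and ITGA6 and NGFR were the 2 that could be tested. ITGA6, a laminin-binding integrin, rose from 10.9, 10.4 and 11 FPKM to 15.8, 15.6 and 16.2 (0.53 ± 0.07, adjusted p = 5.07e-06), and NGFR, under 1 FPKM in each of the 6 wells, did not pass. MUC1, a membrane mucin, was the single member tested of 14 genes of mucus and secretion, and it fell from 4.94, 5.03 and 4.99 FPKM to 2.74, 1.91 and 1.46 (-1.0 ± 0.13, adjusted p = 5.19e-06). None of the 12 ciliated-cell and 9 red-cell markers passed the filter; the ciliated markers summed to 0.792 to 1.09 FPKM in herbal and 0.869 to 1.24 in charcoal wells, and the red-cell markers to 0 and 0 to 0.177. Of the 14 immune markers CD14 and CD68 were tested, and the sum of the 14 was 21.0 to 23.2 FPKM in herbal and 25.4 to 33.1 in charcoal wells. Of the 10 endothelial markers only EGFL7 was tested; it did not pass, and the sums were 13.2 to 13.9 and 12.1 to 13.3 FPKM. The basal markers summed to 16.3 to 17.1 FPKM in herbal and 10.8 to 11.4 in charcoal wells, nearly all of it ITGA6.

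Of 16 tested junction and keratin genes 10 fell and 2 rose, with a median of -0.30. PKP2, a desmosomal plaque protein, measured 5.86, 6.04 and 5.75 FPKM in herbal wells against a mean of 9.87 ± 0.117 (SD, n = 3) in charcoal wells (log2 difference -0.66 ± 0.09, adjusted p = 1.38e-05). The tight-junction gene CLDN1 measured 27.7, 30.8 and 29.1 FPKM against 39.9, 40.2 and 38.3 (-0.42 ± 0.11, adjusted p = 0.00399). The 2 that rose were PERP (0.28) and KRT81. Without charcoal well 2, or without herbal well 3, 6 junction and keratin genes were called lower.

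Several innate immune genes were among the largest falls. CD14, the lipopolysaccharide co-receptor, measured 8.08, 6.14 and 5.12 FPKM in herbal wells, 18.3, 22.9 and 19.6 in charcoal wells and 12.5, 11.9 and 11.1 in control wells. The 3 groups did not overlap, and the herbal difference from charcoal was -1.53 ± 0.12 (adjusted p = 2.98e-08). Complement C3 measured 19.6, 10.5 and 7.90 FPKM against 30.6, 35.4 and 32.1 (-1.39 ± 0.18, adjusted p = 6.27e-06). The scavenger receptor MARCO measured 1.04 and 0.265 FPKM in herbal wells 1 and 2, was listed at 0 in well 3, and measured 4.02, 4.40 and 2.56 in charcoal wells (-1.74 ± 0.20; -3.40 with a pseudocount of 0.1). TNFSF10, the death ligand TRAIL, measured 0.948, 0.444 and 0.176 FPKM against 2.67, 3.26 and 3.05 in charcoal wells and 0.803, 0.619 and 0.721 in control wells (-1.42 ± 0.13; -2.51 with a pseudocount of 0.1). SAA4, which shares sequence with other serum amyloid genes, fell by 1.54 ± 0.23. The immune markers CD14 and CD68 moved in opposite directions, since CD68 rose by 0.74 ± 0.16.

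Inflammatory and interferon genes fell more often than they rose. Of 16 tested NF-kB targets and cytokines 6 fell and 2 rose, with a median of -0.15; without herbal well 3, 3 fell. ICAM1, a leukocyte adhesion receptor, measured 55.9, 43.1 and 45.5 FPKM in herbal wells against 66.9, 66.9 and 67.0 in charcoal wells (log2 difference -0.48 ± 0.06, adjusted p = 2.67e-06), and the chemokine CCL2 fell by 0.64 ± 0.14. The neutrophil chemokines rose: CXCL8 measured 74.4, 70.0 and 77.5 FPKM against 52.5, 56.1 and 54.8 (0.43 ± 0.10, adjusted p = 0.00290), and CXCL1 37.6, 35.8 and 35.8 against 26.1, 28.4 and 30.7 (0.35 ± 0.07, adjusted p = 0.000395). IL6 overlapped between the groups, at 5.81, 5.66 and 4.89 FPKM against 5.79, 6.12 and 6.15 (-0.12 ± 0.12, adjusted p = 0.485). Of 17 tested interferon-response genes 8 fell and 0 rose, with a median of -0.30. GBP1, an interferon-induced GTPase, measured 5.96, 6.90 and 4.67 FPKM against 14.0, 12.6 and 13.1 (-1.07 ± 0.17, adjusted p = 4.22e-05), and HLA-C, whose reads can be shared with other HLA genes, fell by 0.28. Without charcoal well 3, 5 interferon genes were called lower, and without herbal well 3, 4 were.

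Stress-signalling and growth lists had small median log2 differences, between -0.09 and 0.04. Their counts are to be set beside the 16.2% of all tested genes that rose and the 15.3% that fell. Of 18 tested p53 targets 4 fell and 1 rose, with a median of -0.04, and 2 fell without herbal well 3. CDKN1A, the p21 inhibitor of the cell cycle, measured 45.1, 33.7 and 33.3 FPKM in herbal wells against 45.3, 50.6 and 45.8 in charcoal wells (log2 difference -0.34 ± 0.09, adjusted p = 0.00658; 0.0580 without herbal well 3), and the pro-apoptotic BBC3 fell by 0.54. Of 24 tested immediate early genes 2 fell and 0 rose at this time, or 4 fell with libraries scaled by their median ratio, and without herbal well 1, 1 was called higher. JUND measured 19.3, 30.1 and 22.7 FPKM against 44.4, 41.8 and 31.6 (-0.70 ± 0.17, adjusted p = 0.00399), and the other that fell, IER5, varied as much within the charcoal wells, at 42.5, 42.4 and 15.1 FPKM. Of 30 tested genes of S phase 7 fell and 0 rose, but 4 fell without charcoal well 1, 2 or 3 and 1 without herbal well 3, and 1 rose without herbal well 1. Of 30 genes of mitosis 8 rose and 3 fell. AURKA, a spindle kinase, measured 120, 115 and 116 FPKM against 95.3, 95.3 and 91.6 (0.31 ± 0.06), and the survivin gene BIRC5 rose by 0.26. The mitosis genes called lower were 5 without herbal well 1 and 1 without herbal well 3.

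The other lists are given by their counts, to be read against the 16.2% of all tested genes that rose and the 15.3% that fell. Of 4 tested targets of the aryl hydrocarbon receptor 1 fell and 0 rose, and the count was 0 without charcoal well 1, herbal well 1 or herbal well 3. CYP1B1, a well-known target of that receptor, measured 9.98, 8.37 and 6.14 FPKM in herbal wells and 7.54, 7.73 and 8.24 in charcoal wells, and the groups overlapped (0.03 ± 0.21, adjusted p = 0.935). Of 5 tested metallothionein and zinc-export genes 1 rose and 0 fell: MT2A, a metal-binding protein with near-identical relatives, measured 394, 449 and 551 FPKM against 298, 305 and 281 in charcoal wells and 401, 405 and 484 in control wells (0.64 ± 0.10, adjusted p = 6.75e-05). Of 12 aldehyde dehydrogenases 4 rose and 3 fell, and of 11 genes of the unfolded protein response 1 rose (CANX, calnexin, by 0.41 ± 0.05) and 2 fell. That last count was 1 without charcoal well 3, herbal well 1 or herbal well 3. Of 25 genes of autophagy and lysosome 4 rose and 6 fell, of which the first is near the 16.2% of all tested genes; cathepsin L, CTSL, rose by 0.42, and PSAP and CTSA fell by 0.54 and 0.32. The lysosome genes called higher were 1 without charcoal well 1 and 2 without herbal well 2. Of 9 TGF-beta targets 2 rose and 4 fell, with a median of -0.21. The cytoskeletal gene TAGLN was 1 of the 2 that went against that median, rising by 0.66 ± 0.09. Of 8 YAP targets 3 rose and 1 fell, and without herbal well 3 these were 1 and 0. Of 26 replication-dependent histone genes 2 rose and 2 fell, counts that moved between 1 and 3 with single wells.

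**Figure D3:**
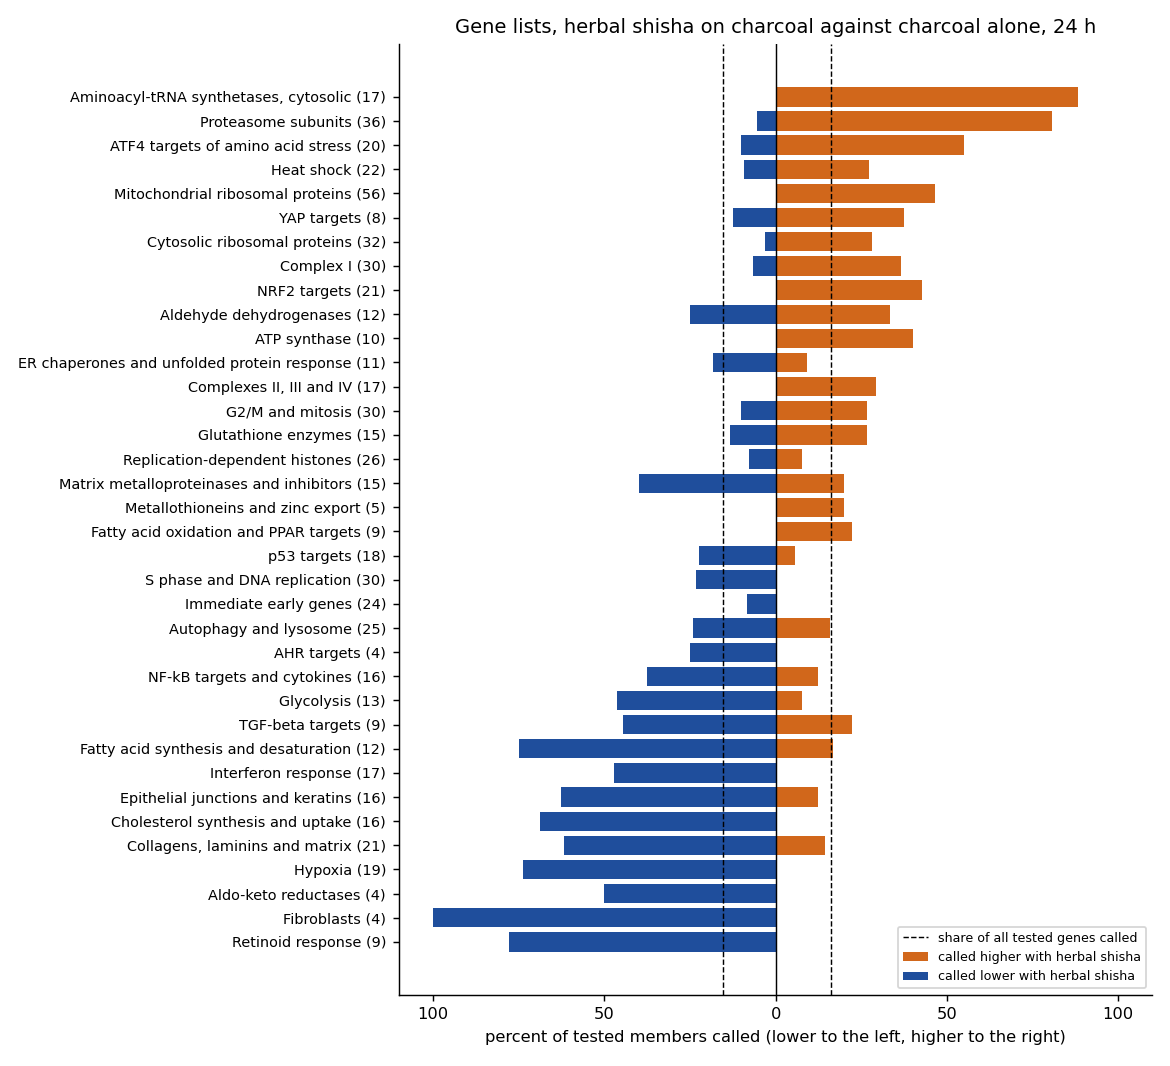
Share of the tested members of each list called higher (orange, to the right) or lower (blue, to the left) with herbal shisha at 24 h, in percent; the number tested is in brackets, lists are ordered by their median log2 difference, and dashed lines mark the 16.2% and 15.3% of all tested genes called higher and lower. Synthetases and proteasome genes reach farthest to the right and retinoid, hypoxia and fatty acid synthesis genes, with the fibroblast markers, farthest to the left.

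The same pair of exposures was also compared 2 h after exposure, in 6 other libraries. At 2 h 2083 genes were called (24.4% of those tested), 859 higher (10.1%) and 1224 lower (14.3%). Of the 1381 genes that rose at 24 h, 353 were also called higher at 2 h and 47 lower; of the 1306 that fell, 395 were also called lower and 51 higher. The difference between the 2 times, tested directly as 24 h minus 2 h, was called for 1371 genes (16.1%; 8.97% higher and 7.1% lower at 24 h), among them 387 of the 1381 that rose at 24 h (28.0%) and 470 of the 1306 that fell (36.0%). Without herbal well 3 at 24 h, 898 genes were called in that test, and without herbal well 3 at 2 h the 2 h count was 1364.

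Of the 30 largest rises and falls at 24 h, 26 differed from 2 h by the direct test, a count favoured by the choice of these genes for their 24 h values. At 2 h the log2 difference was 0.11 for ASNS, 0.18 for PSAT1, -0.06 for DHRS3 and 0.05 for RARRES1, and none of these was called. The change between the times was 1.77 for ASNS (adjusted p = 0.00125), 1.19 for PSAT1 (0.000257), -2.71 for DHRS3 (3.76e-08) and -2.01 for RARRES1 (6.25e-06). CD14 was slightly higher at 2 h, by 0.36, and changed by -1.88 between the times (adjusted p = 9.29e-07). AKR1B1 differed by 0.14 at 2 h and changed by -1.26 (adjusted p = 0.000148). Among the hypoxia genes 1 was called higher and 1 lower at 2 h, and 11 of 19 had a lower difference at 24 h by the direct test. Of the 16 cholesterol genes 5 were called higher and 0 lower at 2 h, and 11 had a lower difference at 24 h.

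Immediate early genes showed the reverse order. At 2 h 11 of 24 were called higher and 1 lower, and 9 had a lower difference at 24 h by the direct test. ZFP36, which destabilises inflammatory mRNAs, rose by 0.71 at 2 h (adjusted p = 9.55e-08) and differed by -0.09 at 24 h, a change of -0.80 (adjusted p = 5.44e-06). CDKN1A was called higher at 2 h (0.48, adjusted p = 0.000619) and lower at 24 h, a change of -0.82 (adjusted p = 0.000206). CXCL1 was lower at 2 h (-0.51, adjusted p = 1.17e-05) and higher at 24 h, a change of 0.86 (adjusted p = 5.44e-06). Proteasome genes did not show such a reversal: 15 of 36 were called higher and 0 lower at 2 h. By the direct test 9 of the 36 had a higher difference at 24 h and 2 a lower one, against 8.97% and 7.1% of all tested genes.

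**Figure D4:**
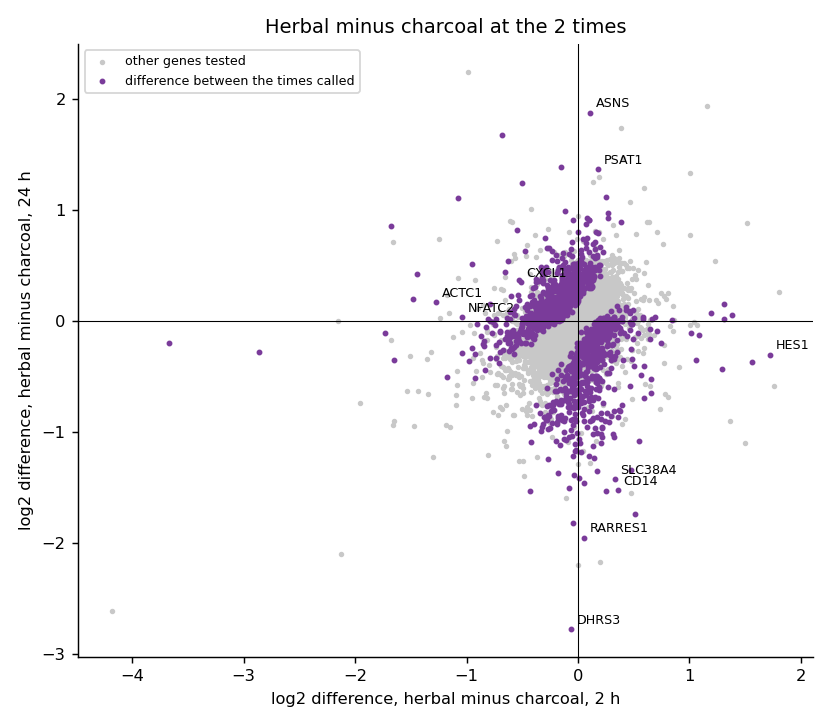
Log2 difference between herbal and charcoal wells for each tested gene, at 2 h on the horizontal axis and at 24 h on the vertical axis, both on the log2(FPKM + 1) scale; purple points are the 1371 genes whose difference changed between the times by the direct test. DHRS3, RARRES1, CD14 and SLC38A4 lie far down with 2 h values between -0.06 and 0.36, ASNS and PSAT1 lie far up with 2 h values of 0.11 and 0.18, and ACTC1 and NFATC2 lie to the left, with 24 h values of 0.17 and 0.03.

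Tobacco shisha on charcoal was compared directly with herbal shisha on charcoal at 24 h, a comparison that shares the herbal wells with the main one. It called 437 genes (5.12%), 206 higher (2.41%) and 231 lower (2.71%) with tobacco. That count rested on single wells: it was 45 without tobacco well 1, 130 without herbal well 2, 150 without herbal well 1, 692 without herbal well 3 and 746 without tobacco well 3. ALAS1, the first enzyme of heme synthesis, measured 50.9, 42.0 and 41.1 FPKM in tobacco wells, 27.8, 30.8 and 32.9 in herbal wells and 21.5, 22.5 and 22.3 in charcoal wells, and tobacco minus herbal was 0.53 (adjusted p = 0.000529). BNIP3 was lower with tobacco, at 39.5, 41.3 and 40.5 FPKM (tobacco minus herbal -0.65, adjusted p = 0.000529), as was SPAG4 (-0.98, adjusted p = 0.000529). CXCL8 and IL6 were higher with tobacco by 0.61 (adjusted p = 0.00363) and 0.54 (adjusted p = 0.0145), and NQO1 by 0.33 (adjusted p = 0.0119). Of the hypoxia list 6 genes were called lower with tobacco and 0 higher, of the ATF4 list 7 lower and 0 higher, and of the NRF2 list 5 higher and 0 lower. DHRS3, RARRES1 and AKR1B1 were not called between the shishas, with differences of -0.42, -0.32 and 0.27.

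The place of the control wells differed between gene groups. Against control at 24 h, charcoal alone called 842 genes (9.87%) and herbal shisha on charcoal 2289 (26.8%); both share wells with the main comparison. Charcoal alone had 516 genes higher (6.05%) and 326 lower (3.82%) than control, or 418 and 438 with libraries scaled by their median ratio, and herbal shisha had 1406 higher (16.5%) and 883 lower (10.4%), or 963 and 1100. Leaving out charcoal well 2 or 3, or any control well, brought the charcoal count to between 511 and 556, and leaving out control well 2 or herbal well 3 brought the herbal count to 1436 or 1420. For ASNS and PSAT1 charcoal alone was below control by 1.98 and 1.21, and herbal wells differed from control by -0.10 and 0.16, neither of which passed. For AKR1B1, SLC38A4 and TNFSF10 charcoal was above control by 1.40, 1.34 and 1.22, while herbal minus control was 0.27, -0.09 and -0.20, and none of these 3 passed. DHRS3, RARRES1 and CD14 were above control with charcoal, by 0.60, 0.94 and 0.72, and below control with herbal shisha, by -2.18, -1.02 and -0.80, each called. NQO1 was above control in both, by 0.69 and 1.48.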

How the data were processed

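RNA of BEAS-2B wells had been sequenced as 50 bp single reads from 1 ug of RNA. The authors deposited 1 FPKM value per transcript row and sample; the submitters' processing notes name HISAT2 2.1.0, StringTie 1.3.4d and hg38, and filters are not given in the sources used here. Each gene name was represented by its row with the highest mean over the 30 libraries (29190 rows, 22537 names; 26 of 27 names damaged by date conversion were recovered). The 8531 genes with at least 1 FPKM in at least 3 libraries were tested with limma 3.58.1 (R 4.3.3) with a mean trend on log2(FPKM + 1), with 1 mean for each of the 10 groups of 3 wells and the spread shared over 30 libraries (20 residual and 2.76 prior degrees of freedom). P-values were Benjamini-Hochberg adjusted over those genes and called below 0.05. An exact permutation test of 3 wells against 3 was not used, since it cannot reach that level.

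In data simulated with 200 genes changed 2-fold among 8531, the fit recovered 185 and made 8 false calls. The simulated noise was independent between genes and wells, and most calls reported here were below 2-fold. These figures therefore do not give error rates for the reported calls. Named genes were the 15 largest called rises and falls with non-overlapping wells and a higher group of at least 2 FPKM, the 3 members of each of 42 gene lists with the smallest p, 8 genes of set interest (CYP1B1, NQO1, CXCL8, IL6, CDKN1A, MT2A, HSPA1A and AKR1C3), and the genes with the smallest p between times (8 each way) and between shishas (5 each way). The comparison, the rule and the lists were chosen with earlier results of these data known. Alternatives were another scaling, pseudocount, filter, handling of rows and set of fitted libraries, a minimum fold, a replicate block and leaving out each well. Some genes that met the naming rule are not reported here. Zeros can be failed estimates. Tables were made with pandas 2.3.3 and numpy 2.4.6 in Python 3.11.15, and figures with matplotlib 3.10.9.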

Additional observations from a re-analysis of the deposited data

Results flagged for a closer look

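The herbal difference at 24 h departed from that at 2 h for 1371 genes by the test of the difference itself, in limma at an adjusted p below 0.05. Of the 30 largest rises and falls at 24 h, 26 were among them (13 rises and 13 falls), a count favoured by their choice for large 24 h differences. All values below are the 24 h log2 difference minus the 2 h one.

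Among the largest rises the change between the times was 2.36 for CBX5, 1.77 for ASNS, 1.54 for GAL, 1.19 for PSAT1 and 1.10 for NT5E. It was 0.95 for HMGA1, 0.87 for SERPINB7, 0.85 for PTAR1, 0.81 for ETV4 and 0.80 for ENDOD1. It was 0.70 for KRT81, 0.66 for ARHGDIB and 0.50 for ODC1.

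Among the largest falls it was -2.71 for DHRS3, -2.26 for MARCO, -2.01 for RARRES1, -1.88 for CD14 and -1.78 for both SULF1 and SAA4. It was -1.75 for SLC38A4, -1.51 for PDZK1IP1, -1.43 for TNFSF10, -1.42 for MMP2 and -1.36 for C3. It was -1.20 for NRP2 and -1.11 for KLF9.

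Of the genes with the smallest p in this test, CXCL1 changed by 0.86, TOX by 0.74 and MVB12B by 0.75, each lower at 2 h and higher at 24 h. The tubulin tyrosine ligase gene TTL changed by 0.35 in the same way. ACTC1, NFATC2, HCN4 and the kinase gene SRC changed by 1.44, 1.07, 0.75 and 0.41, and these 4 were called at 2 h and not at 24 h. With a pseudocount of 0.1 the 24 h difference of ACTC1, a gene below 1 FPKM in the 6 wells, was 0.94 in place of 0.17 and was called (adjusted p = 0.0216). On the falling side ZFP36 changed by -0.80, the glutamate transporter SLC1A3 by -1.17, the annexin ANXA3 by -1.01 and MGARP by -1.33.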

How the results depend on the processing

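Depth is unknown, so the precision of low genes is known only from the spread between wells. The comparison called 2687 genes; this became 19 (2 higher and 17 lower) with a 1.5-fold minimum and ranged from 1770 to 2859 when 1 well was left out. It was 2642 with a pseudocount of 0.1, 2678 with median-ratio scaling (1258 higher, 1420 lower), 2680 with rows of a name summed, 2693 with no filter, 1873 of 4977 genes with a mean of at least 5 FPKM, 2153 with 24 h libraries and 1982 with the 6 compared libraries. Leaving out 1 well gave 1364 to 1807 genes for the 2 h comparison (2083), 898 to 1556 for the difference between times (1371), 45 to 746 for tobacco against herbal shisha (437), 1420 to 2317 for herbal shisha against control (2289) and 511 to 602 for charcoal against control (842). With no filter the tobacco comparison called 293, over 15199 genes.

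The wells shared only a number: same-numbered charcoal and herbal wells correlated at 0.0575, 0.0224 and -0.00984, and charcoal wells 2 and 3 correlated better with another number (0.0438 with herbal 3, 0.00921 with herbal 2). With the number as a replicate block the counts were 2666 for the 24 h comparison, 2090 at 2 h, 1347 between times, 429 for tobacco, 2302 for herbal shisha against control and 830 for charcoal against control.

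Of 160 named genes 140 were called, and 21 of these lost the call under at least 1 alternative other than the 1.5-fold minimum. Direction changed under these alternatives only for genes that were not called: CYP1B1 (-0.111 without herbal well 1, up to 0.2 without well 3), HCN4 (-0.003 without herbal well 3 and -0.0003 without well 2, up to 0.066), IFT122 (0.008 without charcoal well 2 and 0.045 without herbal well 3, down to -0.065), MT1E (0.018 without charcoal well 1, down to -0.458), MT1X (-0.007 without herbal well 3, up to 0.202) and SRC (-0.022 without charcoal well 3, up to 0.04). The cause was not tested.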

Other observations

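Families of related genes, picked by name after the values were seen and so described without a test, moved as blocks in some cases. All 6 tested complement genes fell, with a median log2 difference of -1.08. C1R and C1S, the proteases of the first complement complex, measured 17.6, 9.85 and 8.36 FPKM and 9.60, 5.67 and 3.82 FPKM in herbal wells, against 24.6, 25.9 and 23.5 and 14.3, 14.1 and 13.9 in charcoal wells. Factor B, CFB, measured 3.07, 1.68 and 1.25 FPKM against 5.46, 5.95 and 5.45. In each of these 3 genes herbal well 1 lay nearest the charcoal wells. None of the 6 was called at 2 h, and 5 had a lower difference at 24 h by the direct test (7.1% of all tested genes). All 6 were lower with herbal shisha than in control wells (10.4% of all tested genes), and none was called between charcoal and control. All 11 tested collagen chains fell, with a median of -0.52, and 8 to 11 were called when 1 well was left out.

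Of 7 tested subunits of the TRiC/CCT chaperonin, which folds actin and tubulin, 6 rose and 0 fell, with a median of 0.32. CCT3 measured 204, 209 and 226 FPKM in herbal wells against 169, 170 and 173 in charcoal wells. Of 20 tested genes of mitochondrial protein import 11 rose and 0 fell, with a median of 0.18, among them the pore gene TOMM40 (0.32 ± 0.06). Of 33 translation initiation factor genes 14 rose and 2 fell. Other families did not move as blocks: of all tested genes 16.2% rose and 15.3% fell. Of 139 solute carriers 25 rose and 20 fell, close to those shares. Of 285 ZNF zinc finger genes 9 rose and 22 fell, below them. The ZNF genes called lower were 6 without herbal well 3 and 31 without herbal well 1. They were 12 to 14 without charcoal well 1, 2 or 3 or herbal well 2. Without herbal well 3, 5 ZNF genes rose and without charcoal well 1, 18 solute carriers did, and 16 did without charcoal well 2 or herbal well 3.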
